A study of Mus musculus with 9 samples.

Results

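Lecticans are large chondroitin sulfate proteoglycans of the extracellular matrix, and link proteins are small secreted proteins that pin them to hyaluronan. The 4 mouse lectican genes, Vcan (versican), Acan (aggrecan), Bcan (brevican) and Ncan (neurocan), and the 4 link protein genes, Hapln1, Hapln2, Hapln3 and Hapln4, were examined for chromatin retrieved with probes against the long noncoding RNA Gm4665. These 8 genes of 49603 RefSeq genes were chosen by the position and Gm4665 folds of 1 interval: Vcan was already known to carry a strong one near a gene end, beside Hapln1, and the other genes complete the 2 families. An interval was counted for a gene when it overlapped the annotated span with 2 kb on either side by at least 1 bp. This gave 7 of 38711 Gm4665 intervals and 3 of 9448 LacZ intervals.

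Hyaluronan is a long unsulfated sugar chain, and the lecticans bind it through their amino-terminal domain while link proteins clamp the joint. Versican is widespread in soft and developing tissues, aggrecan is the main proteoglycan of cartilage, and brevican and neurocan belong chiefly to nervous tissue. Each lectican gene lies next to a link protein gene in the genome, so the 8 genes form 4 neighbouring pairs.

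The 9 libraries, 3 in each group, come from the testis of ICR wild-type animals aged 35 days after birth, with no other genotype or treatment in the labels. The groups are chromatin retrieved with Gm4665 probes, chromatin retrieved with LacZ probes as the control, and Input DNA, which the authors used to compute each fold and which has no values of its own here. All 9 samples carry the same protocol, which describes isolated germ cells, cross-linking, sonication and biotinylated probes against Gm4665; the LacZ and Input groups rest on the sample titles, and the titles call the target LncRNA-20. The libraries hold DNA, so the purity of the germ cells could not be checked against marker genes. Separate animals are not named for the replicates, and the spread between them may be technical.

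Of the 8 genes, 3 carried a Gm4665 interval: Vcan with 4, Acan with 2 and Bcan with 1. Ncan and all 4 link protein genes carried none. Across the genome 27.1% of RefSeq genes and 39.3% of protein-coding genes had a Gm4665 interval, so 3 of 8 members is near the background for protein-coding genes. Length matters for such a count: 80.0% of protein-coding genes of 50 kb or more had one, against 27.4% of shorter ones. The LacZ shares were 42.6% for these long genes and 9.33% for shorter ones. Of the 3 members over 50 kb, Vcan (87.7 kb) and Acan (61.9 kb) had Gm4665 intervals and Hapln1 (71.3 kb) did not. LacZ intervals also lay at 3 members, 1 each at Vcan, Acan and Hapln1, where 10.6% of RefSeq genes and 16.9% of protein-coding genes had one. The LacZ count of 3 of 8 thus stood above its background, while the Gm4665 count did not. The members with a LacZ interval are the 3 over 50 kb. Because these intervals defined the choice of genes, and intervals were listed once for a probe set and not by replicate, no test was run and the values are given as a description.

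Vcan (gene 13003) spans 89655309 to 89743027 on chromosome 13 of mm10 and is transcribed from the minus strand. RefSeq's start window for the gene places its start at 89742512, and the annotated span reaches 515 bp farther upstream. The strong interval therefore lies near the start of the gene and not near its 3′ end. The interval ran from 89739370 to 89741900, which is from 612 bp to 3142 bp after the start, with its summit 2130 bp into the gene. Whether it lies in an exon or an intron was not examined, since exons were not used here. Gm4665 replicates 1, 2 and 3 showed 75.8-, 61.1- and 75.7-fold enrichment over input there (mean 70.9 ± 8.45, SD, n = 3). All 3 replicates were high: each exceeded at least 99.85% of the folds of its own replicate. By mean fold it ranked 28 in the whole Gm4665 list and 2 among the 1836 intervals of chromosome 13.

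A second Gm4665 interval lay directly on the Vcan start, separated from the strong one by 180 bp. It ran from 89742081 to 89743270, from 758 bp before the start to 431 bp after it, and covered the whole start window. Enrichment there was 17.4-, 13.6- and 18.5-fold by replicate (mean 16.5 ± 2.57, SD, n = 3), higher than 76.5% of the list. All 3 of its folds were below the lowest fold of the strong interval. Gaps this short were rare in the list: 64 Gm4665 intervals (0.165%) had a neighbour within 180 bp, and the median gap to the nearest interval was 21.4 kb. How close stretches were joined or split when the list was made is not stated. Whether that accounts for the rarity was not tested. The 2 intervals share one stretch of the gene and are not independent observations of it. No LacZ interval was listed within 2 kb of the Vcan start.

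The 250 bases before the Vcan start are shown because both a Gm4665 interval and the gene's start lie there, and those of its neighbour Hapln1, which had no Gm4665 interval, are set beside them. Both are RefSeq sequences of GRCm38.p6, the assembly known as mm10, written 5′ to 3′ along the gene, at chr13:89742513-89742762 on the minus strand for Vcan and chr13:89540386-89540635 on the plus strand for Hapln1. Capitals mark matches on either strand to 3 common promoter motifs, which are TATAAA (the TATA box), CCAAT (the CCAAT box) and GGGCGG (the GC box); no 2 matches overlap here.
Vcan: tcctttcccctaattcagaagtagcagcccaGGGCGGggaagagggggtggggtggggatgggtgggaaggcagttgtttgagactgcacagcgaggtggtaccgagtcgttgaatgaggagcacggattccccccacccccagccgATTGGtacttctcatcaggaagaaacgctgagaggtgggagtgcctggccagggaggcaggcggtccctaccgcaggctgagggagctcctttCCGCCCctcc
Hapln1: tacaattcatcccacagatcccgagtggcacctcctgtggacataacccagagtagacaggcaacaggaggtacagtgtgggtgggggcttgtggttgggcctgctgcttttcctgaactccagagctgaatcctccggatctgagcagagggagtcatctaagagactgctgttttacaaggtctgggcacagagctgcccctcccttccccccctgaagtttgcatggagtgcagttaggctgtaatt

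The Vcan sequence held GGGCGG on the gene's strand from 219 to 214 bases before the start. On the opposite strand it held GGGCGG from 10 to 5 bases and CCAAT from 103 to 99 bases before the start, printed here as CCGCCC and ATTGG. It held no TATAAA, and the Hapln1 sequence matched none of the 3. Over all 32851 start windows of the same 250 bases, 32.7% held GGGCGG, 33.8% held CCAAT and 12.4% held TATAAA, so none of these matches sets Vcan apart. GC content was 62.4% at Vcan and 54.4% at Hapln1, with 10 and 2 CpG dinucleotides, beside medians of 52.4% and 6 over all windows. Acan (74.4% GC, 26 CpG) and Bcan (62.0% GC, 16 CpG), which had no interval at the start, both held more CpG dinucleotides than Vcan.

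Start windows of 300 bp, which reach from 250 bases before a gene's start into its first bases, were listed for 27025 genes and for 7 of the 8 members. A Gm4665 interval overlapped the window of 1.98% of these genes, and Vcan was the 1 member of 7 among them. LacZ intervals overlapped 0.788% of windows and none of the 7. Among the 534 genes with a Gm4665 interval on the window itself, 210 had a higher mean fold than the 16.5 at Vcan. Within 2 kb of a listed start, 8.83% of genes had a Gm4665 interval and 2.65% a LacZ interval. By the strongest interval in that wider range, Vcan ranked 3 of 2387 genes, after Gm4665 itself (mean fold 116) and the lncRNA gene Gm11729 (71.7). The Vcan interval counted here because its near edge lay 612 bp after the start, while its summit, at 2130 bp, lay beyond 2 kb. Vcan owes its rank to the interval just inside the gene and not to the one on the window. Because Vcan was chosen for a strong Gm4665 interval near a gene end, its place in these counts and ranks is not independent of that choice.

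The remaining Gm4665 intervals of Vcan lay deeper in the gene. One ran from 89708073 to 89709616, from 32.9 kb to 34.4 kb after the start, with folds of 47.7, 37.8 and 47.7 (mean 44.4 ± 5.75, SD, n = 3). That was higher than 98.3% of the list and ranked 37 on chromosome 13. Its highest replicate was below the lowest replicate of the strong interval, and the strong interval exceeded it by a ratio of 1.59, 1.62 and 1.59 in replicates 1, 2 and 3. The last ran from 89692697 to 89693380, 49.1 kb to 49.8 kb after the start. With folds of 10.2, 6.12 and 8.22 (mean 8.19 ± 2.05, SD, n = 3) it was higher than only 35.5% of the list. Together the 4 intervals covered 5949 bp, and all lay in the part of the gene nearer its start or just past its middle; the 3′-most was 37.4 kb from the 3′ end. Among protein-coding genes of 50 kb or more, 23.8% had at least 4 Gm4665 intervals, so their number at Vcan is common for long genes.

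**Figure D1:**
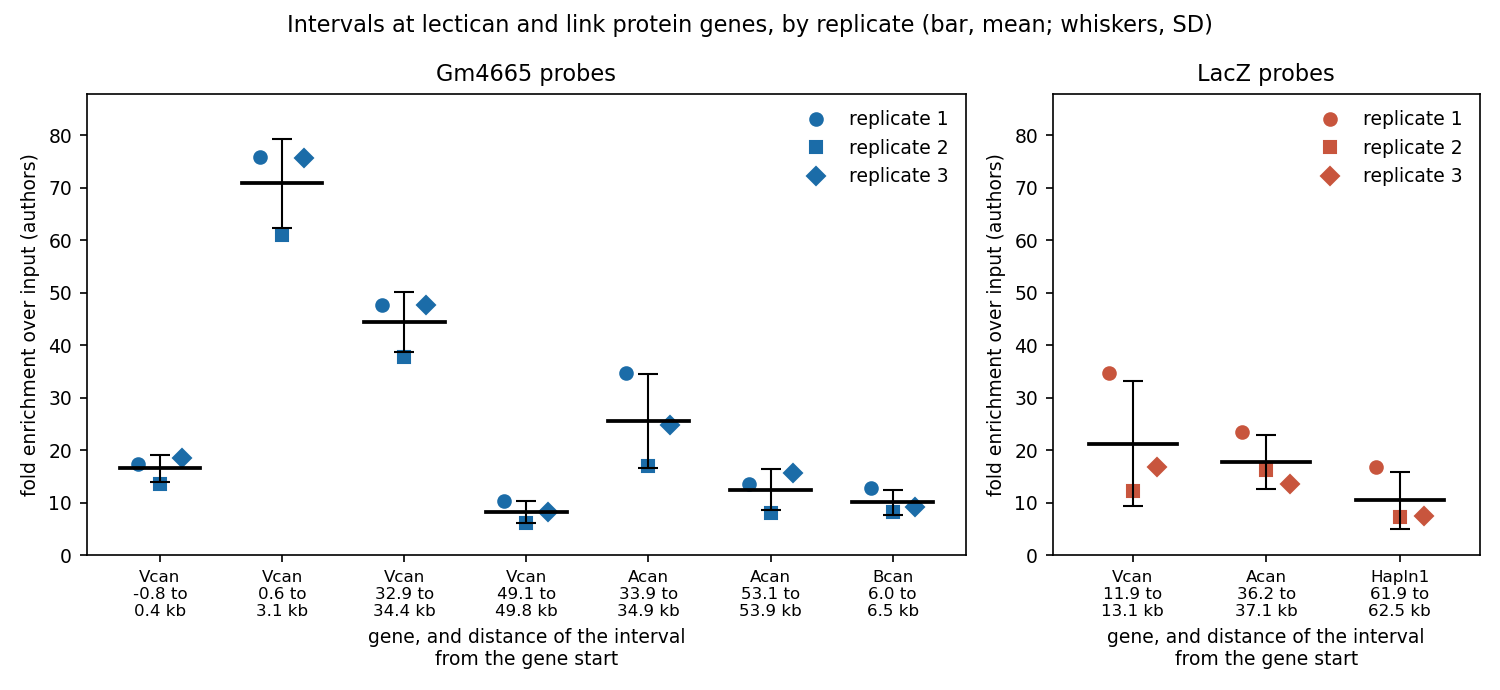
Fold enrichment over input (authors' values, y axis) of every interval at the 8 genes, in replicates 1, 2 and 3 (symbols), with the mean (bar) and SD (whiskers), for Gm4665 probes on the left and LacZ probes on the right. The x axis names the gene and the distance of the interval from its start; the Vcan intervals at 0.6 to 3.1 kb (61.1 to 75.8) and 32.9 to 34.4 kb (37.8 to 47.7) lie above all others in every replicate, and the 2 panels are normalized separately.

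The LacZ interval of Vcan, from 89729438 to 89730634, lay 11.9 kb to 13.1 kb after the start and 8.74 kb from the strong Gm4665 interval. Its folds were 34.7, 12.3 and 16.7 in LacZ replicates 1, 2 and 3 (mean 21.2 ± 11.9, SD, n = 3), higher than 79.5% of LacZ intervals. Replicate 1 stood apart, but relative to the median of each replicate the folds were alike, at 1.51 in replicate 1 and 1.53 in replicate 3, with replicate 2 just below both. The same ratios for the strong Gm4665 interval, over the Gm4665 medians, were 6.66, 7.19 and 7.36. The 2 lists differ in length and were normalized separately, so the ratios are not on one scale between them. The probe sets thus marked separate stretches of Vcan, and no Gm4665 interval of the 8 genes overlapped a LacZ interval. LacZ signal inside the Gm4665 intervals was not measured in the lists.

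Around Vcan, the lncRNA gene Gm4117 begins inside Vcan on the opposite strand and runs out past the Vcan start, from 89733697 to 89790770. It therefore contains both start-proximal intervals, and with its flanks it held 2 more Gm4665 intervals, at 17.4 kb (mean fold 11.3 ± 3.35, SD, n = 3) and 48.6 kb (11.4 ± 3.93, SD, n = 3) before the Vcan start. Intervals at the Vcan start cannot be assigned to Vcan rather than Gm4117 from position alone. The nearest genes that do not hold the strong interval were the lncRNA gene LOC108168105 upstream and the pseudogene Gm16318 within Vcan, and neither had an interval of either probe set. Just outside the flanks of Vcan, a Gm4665 interval lay 6.42 kb past its 3′ end with folds of 15.7, 7.82 and 16.9 (mean 13.5 ± 4.91, SD, n = 3).

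**Figure D2:**
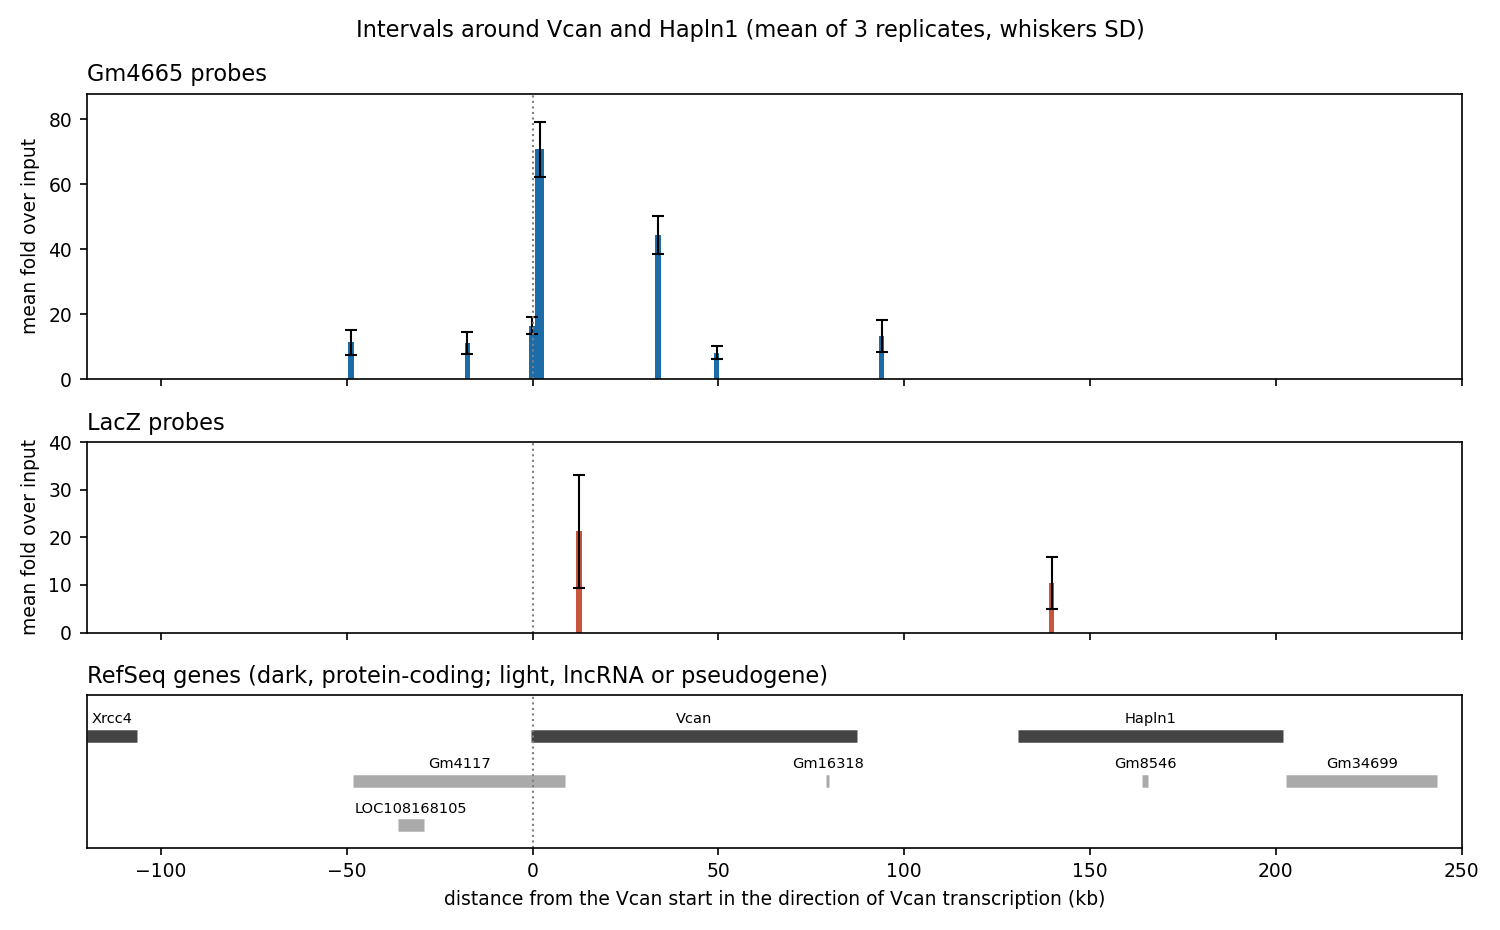
Mean fold over input (bars, 3 replicates; whiskers, SD) of Gm4665 intervals (top) and LacZ intervals (middle) against distance from the Vcan start along Vcan (kb), with RefSeq genes below; narrow bars are drawn at a minimum width and the dotted line marks the start. The tallest Gm4665 bar (70.9) stands just inside Vcan, the LacZ bar of Vcan (21.2) stands 11.9 to 13.1 kb in, and Hapln1 holds a LacZ bar alone.

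Hapln1 (gene 12950, 89540529 to 89611832, plus strand), the link protein of cartilage and other connective tissue, faces Vcan with its 3′ end across 43.5 kb. No Gm4665 interval was listed in it; the nearest, 36.4 kb away, was the one past the 3′ end of Vcan. A LacZ interval lay in its 3′ part, from 89602488 to 89603115, with folds of 16.8, 7.27 and 7.37 (mean 10.5 ± 5.45, SD, n = 3), higher than 24.4% of LacZ intervals. The strong enrichment near the Vcan start thus had no listed counterpart in Hapln1.

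Acan (gene 11595, chromosome 7, 79053226 to 79115099, plus strand) carried 2 Gm4665 intervals, both far from its start. The stronger, from 79087133 to 79088106, lay 33.9 kb to 34.9 kb after the start with folds of 34.8, 17.0 and 24.8 (mean 25.5 ± 8.91, SD, n = 3), higher than 90.4% of the list. Its replicates were more scattered than those of Vcan: replicate 1 was above the other two, and its lowest fold was close to the highest fold of the other Acan interval. That one, from 79106329 to 79107174, had folds of 13.6, 8.05 and 15.6 (mean 12.4 ± 3.93, SD, n = 3), higher than 63.1% of the list. A LacZ interval lay 1336 bp from the stronger Gm4665 interval, from 79089443 to 79090306. Its folds were 23.4, 16.2 and 13.5 (mean 17.7 ± 5.13, SD, n = 3), higher than 68.4% of LacZ intervals. At Acan the 2 probe sets thus marked neighbouring stretches of the same region.

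Bcan (gene 12032, chromosome 3, 87987531 to 88002175, minus strand) had a single Gm4665 interval, from 87993878 to 87994322. It lay 6.03 kb to 6.48 kb after the start, about midway along the gene, with folds of 12.8, 8.16 and 9.22 (mean 10.1 ± 2.43, SD, n = 3). Higher than 50.5% of the list, it was an average interval, and its folds overlapped those of the weaker Acan interval. Ncan (gene 13004, chromosome 8, 70093085 to 70120863, minus strand) had no interval of either probe set. The Gm4665 interval nearest to Ncan was 31.3 kb distant and averaged 7.80 ± 2.76 (SD, n = 3).

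The 3 remaining link protein genes are short and had no interval of either probe set. Hapln3 (gene 67666, chromosome 7, 79117027 to 79133173), expressed more widely than its relatives, measures 16.1 kb, and its nearest Gm4665 interval was the weaker one of Acan, 9.85 kb away. Hapln2 (gene 73940, chromosome 3, 88020558 to 88027511) and Hapln4 (gene 330790, chromosome 8, 70083529 to 70090862), the link proteins of the brain, measure 6.95 kb and 7.33 kb. Their nearest Gm4665 intervals lay 16.9 kb and 21.8 kb away, and averaged 7.86 ± 2.72 for Hapln2 and 7.80 ± 2.76 for Hapln4 (SD, n = 3 each). The interval near Hapln4 is the same one as that nearest to Ncan.

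**Figure D3:**
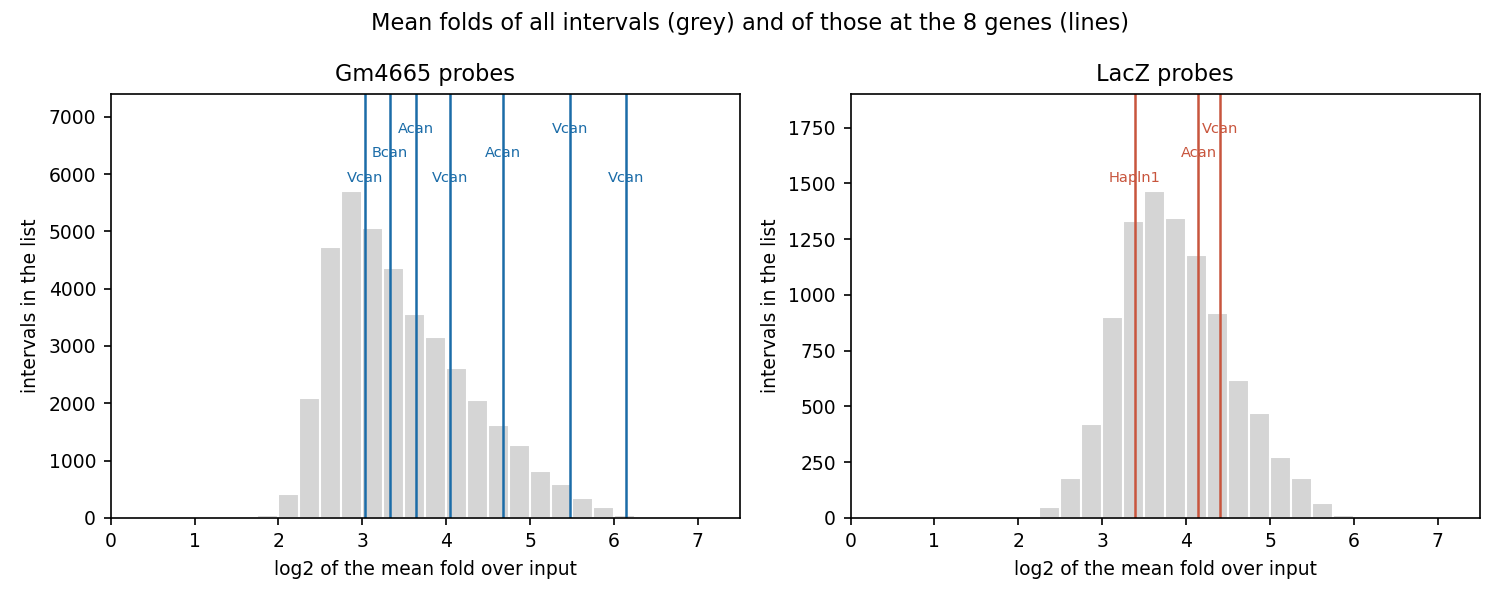
Number of intervals (y axis) by log2 of the mean fold over input (x axis) in the Gm4665 list (left, 38711) and the LacZ list (right, 9448), with lines at the intervals of the 8 genes. In the Gm4665 list 2 Vcan lines stand in the upper tail and the other lines, 2 of Vcan, 2 of Acan and 1 of Bcan, lie lower; the LacZ lines lie within the bulk.

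The 4 pairs were also compared as loci. A locus was measured from 2 kb before the first gene of a pair to 2 kb after the last. Vcan with Hapln1 held 5 Gm4665 intervals in 206 kb, 24.2 per Mb, beside 15.7 per Mb on chromosome 13. Acan with Hapln3 held 2 in 83.9 kb (23.8 per Mb; chromosome 7, 15.6 per Mb) and Bcan with Hapln2 held 1 in 44.0 kb (22.7 per Mb; chromosome 3, 14.3 per Mb). Ncan with Hapln4 held none in 41.3 kb, where the density of chromosome 8 was 15.5 per Mb. Over all 4 loci the density was 21.3 per Mb for Gm4665 intervals (8 intervals) and 7.98 per Mb for LacZ intervals (3 intervals), beside 15.7 and 3.84 per Mb on the autosomes. The Vcan and Hapln1 locus, chosen for its strong Gm4665 interval, supplied 5 of the 8 Gm4665 intervals. The pooled Gm4665 density is therefore not independent of that choice. With so few intervals these densities also carry a large counting error. In each of the 3 pairs with a Gm4665 interval, the intervals lay in the lectican gene or beside it and none lay in the link protein gene. Gene length limits this comparison: Hapln3 (16.1 kb) and Hapln2 (6.95 kb) are short, and 27.4% of protein-coding genes under 50 kb had a Gm4665 interval. Hapln1 (71.3 kb) alone of these link protein genes is long, where the share was 80.0%.

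**Figure D4:**
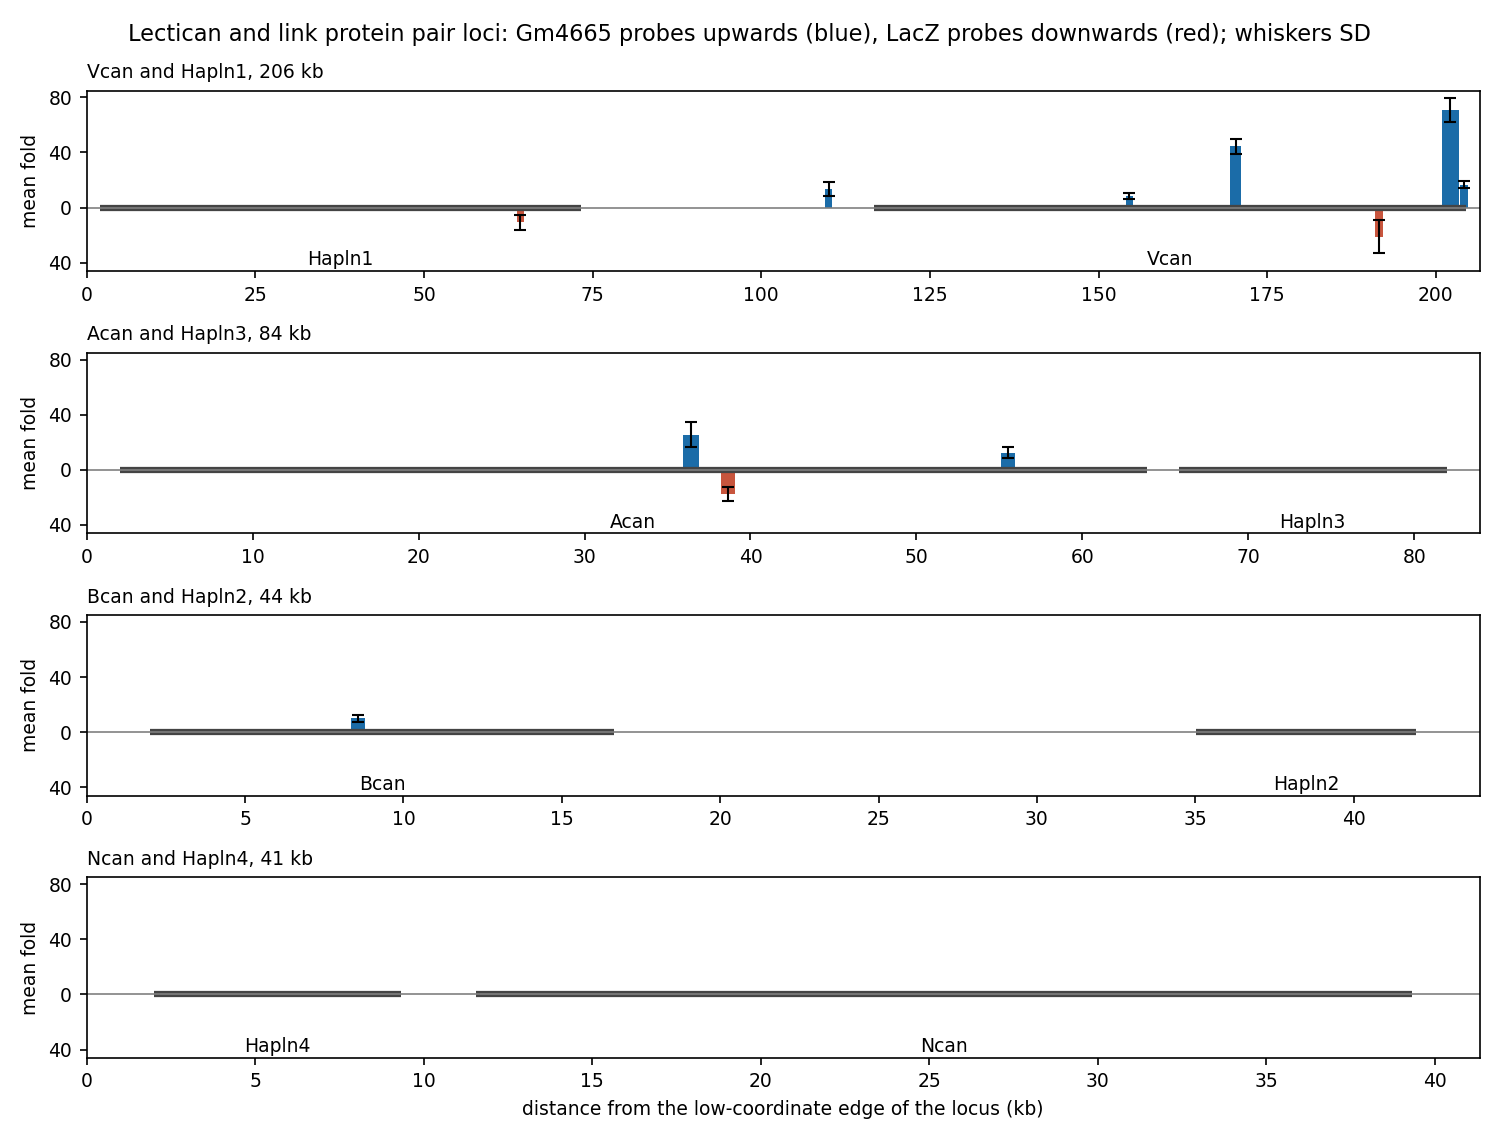
Mean fold over input (whiskers, SD, 3 replicates) of Gm4665 intervals, drawn upwards, and LacZ intervals, drawn downwards, along the 4 lectican and link protein loci (x axis, kb from the low-coordinate edge; y axis the same in every row; dark bars, genes; narrow intervals are drawn at a minimum width). Gm4665 bars stand over Vcan, Acan and Bcan and between Hapln1 and Vcan, and the Ncan and Hapln4 locus is empty.

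The order of the replicates was shared in part by the member intervals of a list, and only the remaining places varied. Gm4665 replicate 2 gave the lowest fold at 7 of 7 member intervals, and it was the lowest at 63.0% of all Gm4665 intervals. LacZ replicate 1 gave the highest fold at 3 of 3, as it did at 95.9% of all LacZ intervals. The highest Gm4665 fold came from replicate 1 at 5 intervals and from replicate 3 at 2, the Vcan start and the weaker Acan interval, beside 56.3% and 34.1% of the list. The lowest LacZ fold came from replicate 2 at Vcan and Hapln1 and from replicate 3 at Acan. The deposited pileup, the read coverage at the summit, followed replicate 1 and was 245 at the strong Vcan interval, 139, 50 and 29 at the other 3, 101 and 39 at Acan and 37 at Bcan. Folds fell on a grid whose step was 0.341, 0.340 and 0.411 in Gm4665 replicates 1, 2 and 3, and 48.1%, 54.8% and 52.5% of folds were whole multiples of it within 0.01 of a step. The weakest Vcan fold was 30, 18 and 20 such steps, while the strong one was about 222, 180 and 184. At the strong interval the replicate 1 fold was 0.904 of the highest that its pileup gave elsewhere in the list; what the steps stand for is not stated in the file headers. Total reads per library are unknown here, so no counting interval is given.

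The 86 other genes of hyaluronan and proteoglycan biology were counted in the same way. In all, 46 of 86 had a Gm4665 interval and 24 had a LacZ interval, with densities of 17.7 and 5.13 per Mb. The background was 39.3% and 16.9% of protein-coding genes, and 15.7 and 3.84 per Mb on the autosomes, for Gm4665 and LacZ probes. As shares, 53.5% of the 86 genes had a Gm4665 interval and 27.9% a LacZ interval. The share was thus above the background with the control probes as well as with Gm4665 probes. The genes, with a median length of 32.8 kb, were not matched to the background for length. By list the Gm4665 share ran between 42.9% and 76.9% and the LacZ share between 17.9% and 45.5%. Of 28 genes for hyaluronan synthesis, turnover and binding, 12 had a Gm4665 interval and 5 a LacZ interval. Itih4, a heavy chain family member of the inter-alpha-trypsin inhibitors, had folds of 62.7, 36.4 and 47.1, and Stab1, a scavenger receptor gene, averaged 44.1 ± 5.09 (SD, n = 3). Cemip, a gene of hyaluronan breakdown, had a mean fold of 37.7 ± 8.03 with Gm4665 probes and 38.2 ± 27.7 with LacZ probes (SD, n = 3 each). The 2 values come from separate intervals of the gene and from lists normalized separately, so they do not compare one site. The highest LacZ value of these genes was at Impg1, a hyaluronan-binding proteoglycan gene of the retina, with 40.5 ± 29.1 (SD, n = 3).

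Of 11 genes for proteases that cut lecticans and for their inhibitors, 5 had a Gm4665 interval and 5 a LacZ interval. The leading proteases were Adamts9 (mean fold 32.0 ± 12.5), Adamts20 (24.3 ± 2.22) and Adamts15 (23.5 ± 11.2; SD, n = 3 each). Adamts15 and Adamts20 also had a LacZ interval (mean folds 23.8 and 12.6), and Adamts9 had none. Timp4, an inhibitor, had the highest LacZ mean fold of these 11 genes, 25.6 ± 13.4 (SD, n = 3). Of 13 genes for proteins that bind lecticans, 10 had a Gm4665 interval and 5 a LacZ interval; these are long genes, with a median of 80.3 kb. Fbn2, a fibrillin, had 46.0 ± 6.87, Tnr, the tenascin of the brain, 28.4 ± 3.54 and Egfr, a growth factor receptor, 21.7 ± 4.48 (SD, n = 3 each). Fbn2 and Tnr also had LacZ intervals (strongest mean folds 20.4 and 17.6), and Egfr had none. Fbln1, a fibulin, had no Gm4665 interval and led the LacZ values with 28.7 ± 9.76 (SD, n = 3).

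Of 21 genes that build chondroitin sulfate chains, 12 had a Gm4665 interval and 6 a LacZ interval. Chst11, which encodes a sulfotransferase of these chains, had folds of 73.7, 56.0 and 60.9, and its interval lay wholly upstream of a listed start. Xylt1, whose enzyme adds the first sugar of the chain, had 80.8, 48.3 and 58.9. Ust, another sulfotransferase gene, had a mean fold of 46.9 ± 14.8, and Dse, an epimerase gene with no Gm4665 interval, led the LacZ values with 23.4 ± 22.0 (SD, n = 3 each). Chst11, Xylt1 and Ust also had LacZ intervals. The strongest LacZ interval of each lay apart from its strongest Gm4665 interval, with mean folds of 19.3, 9.84 and 18.0. Of 13 other proteoglycan genes, 7 had a Gm4665 interval and 3 a LacZ interval, led by Spock1 (31.0 ± 12.8), Ptprz1 (16.9 ± 1.84) and Spock3 (13.3 ± 5.04) with Gm4665 probes (SD, n = 3 each). Spock1 also led with LacZ probes, at 19.5 ± 10.4 (SD, n = 3).

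Within 2 kb of a listed start, 4 of 67 of these genes had a Gm4665 interval, against 8.83% of all genes with a listed start. They were Chst11 (strongest mean fold 63.5, rank 7 of 2387), Stab1 (30.0, rank 198), Chst15 (8.48) and Timp2 (7.45).

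**Figure D5:**
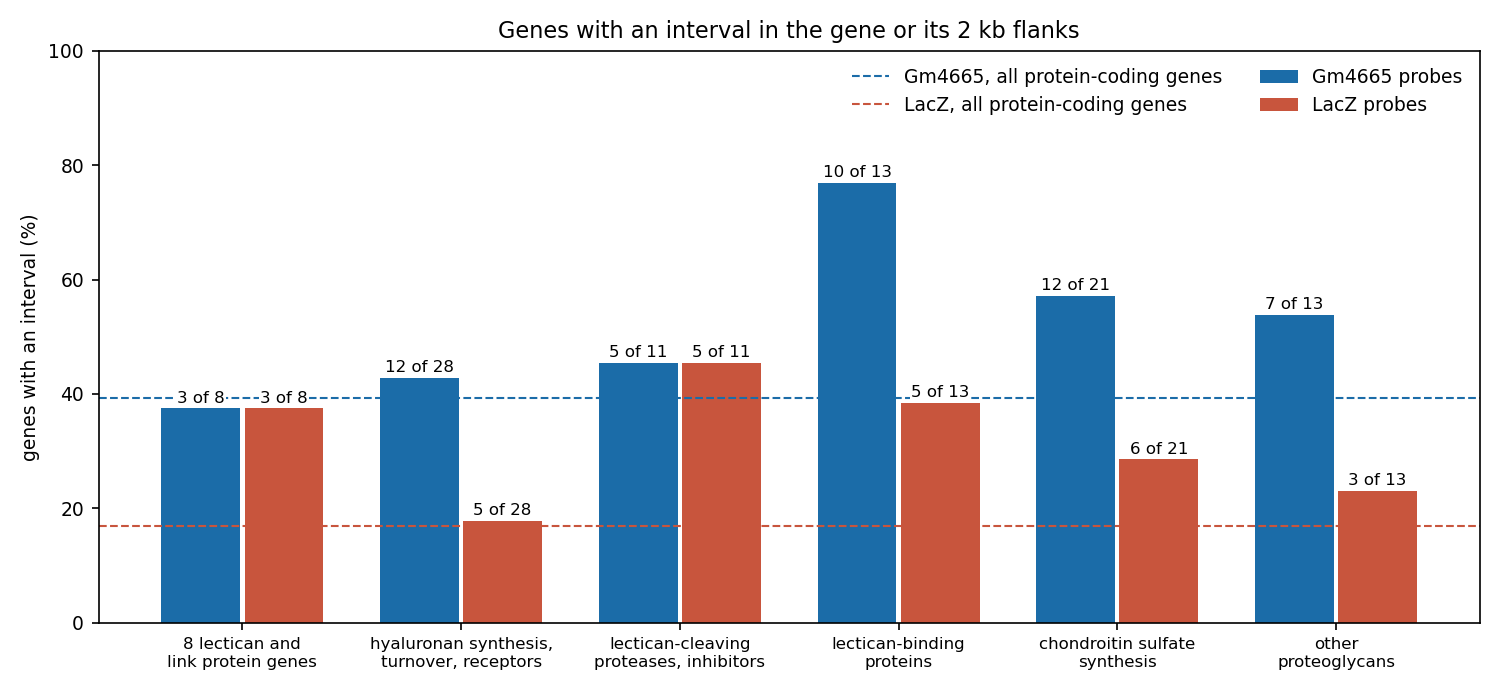
Percentage of genes with an interval in the gene or its 2 kb flanks (y axis) for the 8 lectican and link protein genes and 5 lists of related genes, with Gm4665 probes (blue) and LacZ probes (red); counts stand on the bars and dashed lines give all protein-coding genes (39.3% and 16.9%). The 8 genes lie near the Gm4665 line at 3 of 8 and above the LacZ line, also at 3 of 8. The tallest bar, 10 of 13, belongs to the list with the longest genes.

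The genes whose gene-end intervals were most like that of Vcan were found from the log2 folds of the 3 Gm4665 replicates, over windows of 2 kb either side of each gene end. Nearest were the lncRNA genes Gm11729 and Gm34128, which share 1 interval (83.2, 58.7 and 73.2; distance 0.15), then Daw1, a dynein assembly gene (77.2, 60.2 and 67.4; 0.17). Zfp626, a zinc finger gene (71.9, 61.6 and 64.2; 0.25), and Smgc, the gene of submandibular gland protein C (65.6, 60.9 and 68.7; 0.25), followed. These distances rest on 3 replicate values each and say only that the folds were of like size.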

How the data were processed

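Each of 2 deposited interval lists, 1 per probe set, gives positions and 1 linear fold enrichment over input per replicate, a ratio made by the authors with MACS2, per the file names; its version and settings, the aligner and the joining of replicates are not stated in those sources. The deposited pileup signal names no replicate; dividing the first replicate's fold by pileup + 1 reached the list's maximum (relative tolerance 0.0005) in 47.5% of Gm4665 and 52.8% of LacZ rows, so it was read as replicate 1. Coordinates, 1-based, are of mm10 (submitters' processing notes). Repeated rows (649 and 165) were joined with the highest fold kept; none lay at the 8 genes. Intervals on other sequences (116 and 25) were left out, as were 340 gene entries in the first 3 Mb of any chromosome but Y, whose coordinates look like those of scaffolds. Starts and strands came from RefSeq start windows. Means and SDs are over 3 replicates. Folds were ranked within a list only, since normalization was separate. A fold grid step was found as the value of which most folds were whole multiples within 0.01 of a step. Python 3.11.15, pandas 2.3.3 and numpy 2.4.6 were used, and the overlap code was checked on simulated intervals. The genes, the gene lists and the rules were chosen with earlier results of these data known. Named genes are the 8 members, the neighbours of the strong Vcan interval, the 5 genes most like it, and of each list the 3 highest Gm4665 genes and the 1 highest LacZ gene; genes named for an interval within 2 kb of a start were chosen after their values were seen.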

Additional observations from a re-analysis of the deposited data

How the results depend on the processing

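Flanks of 0, 5 and 10 kb, interval midpoints and a minimum fold of 4 in every replicate changed no count by over 1.5 times; with 10 kb, members with a Gm4665 interval were 4, because Hapln3 then reached an Acan interval. When only the 9448 strongest Gm4665 intervals were kept, as many as the LacZ list has, 2 members had a Gm4665 interval, against 3 with a LacZ interval; the members held 4 Gm4665 intervals, the pair loci 4, and 21 other genes of the pathway had one, fewer by construction. The strong Vcan interval had a mean fold of 68.4 to 75.7 without each replicate in turn and 61.1 by its lowest replicate, and it exceeded 99.88% to 99.93% of the list without each replicate. The background share was 39.3% for protein-coding genes and, chosen after seeing the data, 80.0% for those of 50 kb or more. No paired analysis was possible because the probe sets were compared by no test and their lists give folds for different intervals, so replicate numbers could not be paired between Gm4665 and LacZ. Depth is known only through pileup and grid steps, and exons were not used here.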
